A study of Mus musculus with 24 samples.

Results

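Molecular chaperones are proteins that bind unfolded or partly folded polypeptides and help them to reach and keep their native form. The genes described here are 53 named chaperones, co-chaperones and folding enzymes, with a few regulators of these systems, out of 38215 genes in the table. They are a list of gene names, drawn up with earlier results of these data known. By the compartment in which the protein works, 24 are cytosolic or nuclear, 5 are mitochondrial, 8 are the subunits of the chaperonin ring of the cytosol (CCT, also called TRiC), and 16 belong to the endoplasmic reticulum (ER). The name Hspa14 stood on 2 rows of the table, and the row with the larger counts was used.

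Expression was measured by sequencing of polyadenylated RNA in long-term haematopoietic stem cells (LT-HSCs), the rare marrow cells that can rebuild the blood for life. They were sorted as lineage-negative Sca1+ cKit+ CD150+ CD48- cells. The mice were lethally irradiated C57BL/6J recipients carrying Ptprc a/b, transplanted with a 1:1 mix of marrow of 2 genotypes. One donor was Jak2 fl-V617F/+ with the Tg(E2A-cre) transgene (CD45.2), so its cells carry a gain-of-function form of Jak2, the kinase of several cytokine receptors, that drives myeloproliferative neoplasms. The other was a congenic Jak2+/+ Ptprc a/a donor (CD45.1), here called wild-type. Recipients received pegylated interferon alpha (pegIFN), which is used to treat these neoplasms, at 600 ng under the skin once a week, or vehicle (PBS with BSA). Each was given 5 doses over 4 weeks, and cells were collected 48 h after the last. The groups were Jak2V617F cells under pegIFN, Jak2V617F cells under vehicle, wild-type cells under pegIFN and wild-type cells under vehicle, with 6 libraries each. Both genotypes were sorted from every recipient, so by the number in the library name the 24 libraries came from 12 mice. All cells compared had therefore passed through irradiation and transplantation, and the genotypes differ in donor and in the CD45 allele as well as in Jak2.

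Cytosolic chaperones work as a relay. DnaJ proteins (Dnaja, Dnajb) deliver clients to Hsp70 proteins (Hspa), nucleotide exchange factors such as Hsph1 and Bag3 release them, and Stip1 passes some on to Hsp90, whose cycle is tuned by Ahsa1, Ptges3 and Fkbp4. Heat shock factor 1 (Hsf1) drives many of these genes when unfolded protein builds up. Mitochondria fold imported proteins with their own Hsp70 (Hspa9) and the Hspd1/Hspe1 chamber, the CCT ring folds actin, tubulin and other large cytosolic proteins, and the ER has its own Hsp70 (Hspa5, BiP) and Hsp90 (Hsp90b1), whose genes respond to the ER sensors Ern1, Atf6 and Eif2ak3.

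Promoters were read to show which members carry the known stress elements in front of their genes. RefSeq windows on GRCm38.p6, from 250 bases before to 50 after each start, were at hand for 45 of the 53 members (54 windows). The windows of 6 members are shown because they belong to genes with the largest or opposite changes, or to a gene that was high in 1 vehicle mouse. Capitals mark the heat shock element in the first 3 (GAA, TTC and GAA, each 2 free bases apart; where matches overlap, all bases they cover). In the next 2 they mark the ER stress response element (CCAAT and CCACG, 9 free bases apart). All motifs were searched on both strands. Dnajb9 held neither, so it has no capitals.
Hsph1, chr5:149636287-149636586, minus strand: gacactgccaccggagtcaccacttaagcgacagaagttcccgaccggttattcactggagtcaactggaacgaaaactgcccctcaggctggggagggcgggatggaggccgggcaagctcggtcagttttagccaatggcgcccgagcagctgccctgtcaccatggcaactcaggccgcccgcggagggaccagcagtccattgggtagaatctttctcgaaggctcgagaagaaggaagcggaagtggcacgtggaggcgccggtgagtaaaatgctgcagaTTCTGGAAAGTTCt
Hspe1, chr1:55087898-55088197, plus strand: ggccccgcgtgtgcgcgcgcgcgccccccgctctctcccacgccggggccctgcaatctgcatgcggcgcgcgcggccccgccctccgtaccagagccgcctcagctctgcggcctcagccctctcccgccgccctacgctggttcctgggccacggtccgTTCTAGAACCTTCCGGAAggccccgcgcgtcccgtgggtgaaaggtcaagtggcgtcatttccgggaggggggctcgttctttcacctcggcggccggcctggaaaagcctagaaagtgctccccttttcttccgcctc
Chordc1, chr9:18292017-18292316, plus strand: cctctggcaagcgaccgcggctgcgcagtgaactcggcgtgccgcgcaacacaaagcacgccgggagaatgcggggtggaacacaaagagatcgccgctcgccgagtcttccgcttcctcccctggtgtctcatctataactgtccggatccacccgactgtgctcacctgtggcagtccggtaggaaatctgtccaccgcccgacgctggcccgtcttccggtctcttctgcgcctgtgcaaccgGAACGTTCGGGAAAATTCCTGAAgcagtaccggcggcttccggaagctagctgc
Hspa5, chr2:34771840-34772139, plus strand: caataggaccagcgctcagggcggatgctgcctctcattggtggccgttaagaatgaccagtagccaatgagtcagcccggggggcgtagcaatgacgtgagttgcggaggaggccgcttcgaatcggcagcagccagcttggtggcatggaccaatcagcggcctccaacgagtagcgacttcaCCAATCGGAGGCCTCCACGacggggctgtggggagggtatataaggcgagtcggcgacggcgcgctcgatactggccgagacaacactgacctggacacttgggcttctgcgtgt
Creld2, chr15:88819396-88819695, plus strand: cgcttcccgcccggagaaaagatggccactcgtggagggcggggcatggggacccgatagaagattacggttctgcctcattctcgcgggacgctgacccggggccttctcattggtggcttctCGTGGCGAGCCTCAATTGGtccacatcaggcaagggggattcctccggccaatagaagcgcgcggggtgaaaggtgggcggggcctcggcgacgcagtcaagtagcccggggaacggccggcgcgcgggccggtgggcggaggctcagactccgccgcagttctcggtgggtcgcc
Dnajb9, chr12:44210019-44210318, minus strand: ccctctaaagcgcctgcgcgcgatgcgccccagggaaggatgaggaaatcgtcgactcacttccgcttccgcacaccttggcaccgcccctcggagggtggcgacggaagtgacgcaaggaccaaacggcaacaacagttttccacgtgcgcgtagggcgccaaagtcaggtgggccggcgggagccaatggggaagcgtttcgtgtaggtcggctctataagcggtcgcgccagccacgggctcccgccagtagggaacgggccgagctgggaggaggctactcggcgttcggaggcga

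The heat shock element was in the windows of 5 members, Chordc1, Dnajb6, Hspd1, Hspe1 and Hsph1, and in 0.603% of all 32841 windows. Hspe1 and Hspd1 lie head to head, and 285 bases of the Hspe1 window are also in a window of Hspd1, so their elements are the same bases. In Hsph1 the match begins 36 bases after the start in the window shown, and 15 bases after it in a window for a second start. The ER stress response element was in the windows of 6 of the 14 ER members with a window (Canx, Creld2, Dnajc3, Hsp90b1, Hspa5 and Pdia6) and in 0.119% of all windows. In Hspa5 it begins 65 bases before the start, and in Creld2, on the other strand, 126 bases before it. A second form, ATTGG and CCACG with 1 free base between them, was in Dnajb11 and Herpud1 and in 0.0365% of all windows. The E-box CACGTG was in Dnajb9, Hsf2, Hspd1 and Hsph1 and in 7.15% of all windows. The interferon-stimulated response element, GAAA and GAAA with 2 free bases between them, was in no member window and in 3.44% of all windows, and none of the windows of the 7 CCT members that had one held any of the 5 motifs. A match describes these letters in these windows and shows no binding.

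Total counts ran from 24.6 to 39.7 M per library. A pair of libraries stood apart on sex-linked genes. Replicate 1 of Jak2V617F under pegIFN had 653.9 CPM (counts per M counts of the library, after scaling) of Xist, against 40.8 to 110.1 in the other 5 of its group, and replicate 4 of wild-type under vehicle had 599.8 CPM, against 1937 to 3310. The pair departed differently on Y-linked genes. Their sum in this Jak2V617F library was 149.3 CPM, against 157.8 to 216.2 in the other 5 of its group, and in this wild-type library 249.6 CPM, against 20.2 to 75.7 in the other 5 of its group. The wild-type library was thus above the highest Jak2V617F library under vehicle (242.7 CPM) on Y-linked genes, and what that means for its label was not tested. Apart from this pair, the Jak2V617F libraries had low Xist and the wild-type libraries high Xist, so the sex of the donor cells, the donor and the mutation cannot be told apart. Member counts of the genotype comparisons are given with and without this pair. Of the markers that define other cells, the sum of 8 B lymphoid genes was 10.3 to 25.04 CPM over all libraries. Megakaryocyte genes (8) summed to 2128 to 2945 CPM in Jak2V617F under pegIFN and 1374 to 2799 under vehicle. In wild-type cells they summed to 1632 to 2570 CPM under pegIFN and 837 to 2265 under vehicle. Erythroid genes (10) summed to 308 to 683 CPM in Jak2V617F under pegIFN and 391 to 719 under vehicle. In wild-type cells these summed to 616 to 1016 CPM under pegIFN and 320 to 911 under vehicle. T and NK genes (8) summed to 42.9 to 155 CPM over all libraries. The sum of 10 granulocyte and monocyte genes was 927 to 1505 CPM in Jak2V617F under pegIFN, 401 to 2181 in Jak2V617F under vehicle, 210.2 to 654 in wild-type under pegIFN and 394 to 1055 in wild-type under vehicle. Plasma cell genes (7) summed to 7.62 to 88.0 CPM in Jak2V617F under pegIFN, 13.3 to 344 in Jak2V617F under vehicle, 7.69 to 107.2 in wild-type under pegIFN and 8.23 to 400.3 in wild-type under vehicle. LT-HSC markers (10) were present in every group, with sums of 1078 to 1721 CPM in Jak2V617F under pegIFN, 1507 to 1955 in Jak2V617F under vehicle, 1190 to 1605 in wild-type under pegIFN and 1934 to 2659 in wild-type under vehicle. In sorted but bulk RNA, fewer cells of a type and less RNA per cell cannot be told apart.

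Together the 53 genes held 2.55% of the scaled library size in Jak2V617F under pegIFN and 1.84% in Jak2V617F under vehicle, and 2.29% in wild-type under pegIFN against 1.57% in wild-type under vehicle (group means of summed CPM). Cytosolic members made up most of this. Per kb of exon, Hsp90ab1, the constitutive cytosolic Hsp90, was the most abundant member in every group, with 1368 ± 94.4 CPM per kb in Jak2V617F under pegIFN and 975 ± 83.4 in wild-type under vehicle (SD, n = 6 each). Hspa8, the constitutive Hsp70, came next with 988 ± 119 CPM per kb in Jak2V617F under pegIFN and 547 ± 93.2 in wild-type under vehicle. In mitochondria Hspd1 was highest, with 285 ± 25.6 CPM per kb in Jak2V617F under pegIFN and 144 ± 24.3 in wild-type under vehicle. In the ER, Hspa5 was highest, with 295 ± 36.9 CPM per kb in Jak2V617F under pegIFN and 175 ± 54.4 in wild-type under vehicle. The 8 CCT subunits, which enter the ring in equal numbers, spanned a 2.65-fold range of CPM per kb in Jak2V617F under pegIFN. There Cct5 was highest at 199 ± 11.9 CPM per kb and Cct7 lowest at 75.1 ± 4.83. The length used joins all annotated exons of a gene, 2.766 kb for Cct5 and 6.778 kb for Cct7. The range therefore depends on these lengths and is not read as unequal supply of subunits.

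The first comparison asked how chaperone RNA in stem cells of each genotype differed between pegIFN and vehicle. Most members were higher under pegIFN in both genotypes, by modest amounts. In Jak2V617F cells, 41 of 53 rose and 2 fell (edgeR quasi-likelihood test, adjusted p under 0.05 over all genes), where 21.7% of the 15879 genes tested rose and 22.3% fell. In wild-type cells 42 rose and 2 fell, where 28.2% of genes rose and 28.7% fell. All 53 passed the filter on low counts. The members' median log2 fold change was 0.38 in Jak2V617F cells and 0.48 in wild-type cells, against -0.01 over all genes in each. Of the members, 40 rose in both genotypes, and Dnajb9 and Hsf2 fell in both. The groups did not overlap for 23 members that were higher in Jak2V617F cells (9.81% of all genes) and for 31 that were higher in wild-type cells (15.1%). No member was lower without overlap in Jak2V617F cells, where 8.58% of all genes were, and Dnajb9 alone was in wild-type cells.

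**Figure D1:**
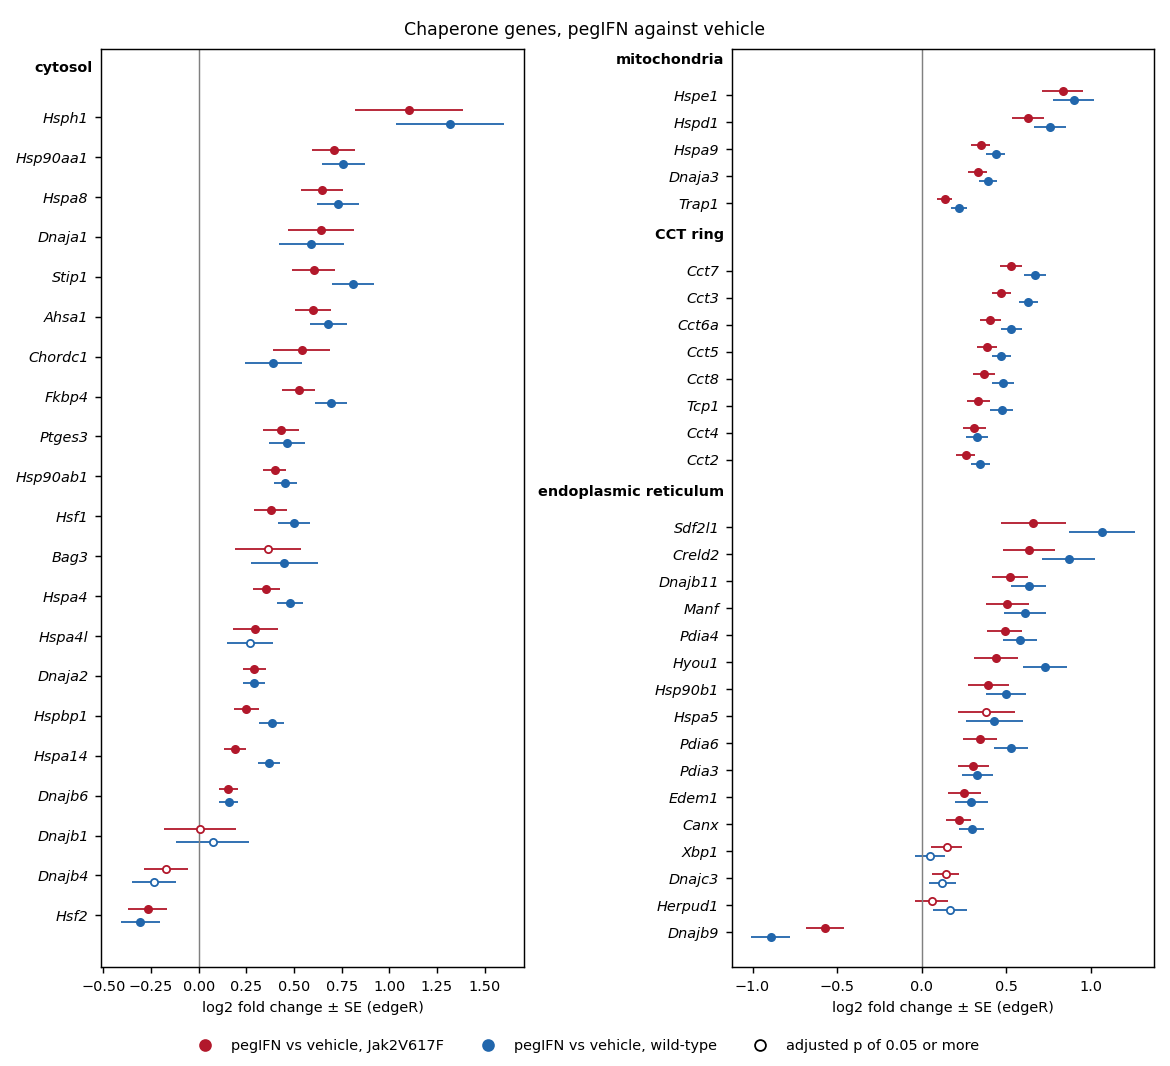
Log2 fold change of pegIFN over vehicle for each member in Jak2V617F and wild-type cells, ordered by compartment, with bars of ± SE from edgeR. Hspa1a, Hspa1b and Hspb1 are left out because their SE is too wide for the axis. Most points lie right of 0, and Dnajb9 lies furthest to the left in both genotypes.

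In the cytosol, 17 of 24 members rose and 1 fell in each genotype, with medians of 0.41 in Jak2V617F and 0.47 in wild-type cells. Hsph1 (Hsp110, a release factor of Hsp70; chr5:149614287-149636376, minus strand on GRCm38) had the largest called change. It ran at 231 to 386 CPM (median 307) in Jak2V617F under pegIFN, against 89.1 to 295 CPM (median 119) in Jak2V617F under vehicle. In wild-type cells it ran at 222 to 339 CPM (median 311) under pegIFN, against 74.6 to 228 CPM (median 97.9) under vehicle. The groups overlapped in both genotypes, and the vehicle library inside the pegIFN range came from the same mouse in each. The log2 fold change of Hsph1 was 1.10 ± 0.28 (SE, adjusted p = 0.00344) in Jak2V617F and 1.32 ± 0.28 (SE, adjusted p = 0.00048) in wild-type cells.

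Hsp90aa1, the inducible Hsp90 (chr12:110690605-110702728, minus strand), ran at 1894 to 2566 CPM (median 2205) in Jak2V617F under pegIFN, against 1168 to 1595 CPM (median 1283) under vehicle. Wild-type cells had 1623 to 2081 CPM (median 1895) under pegIFN, against 925 to 1404 CPM (median 981) under vehicle. All pegIFN libraries lay above all vehicle libraries of the same genotype. Its log2 fold change was 0.71 ± 0.11 (SE, adjusted p = 3.13e-05) in Jak2V617F and 0.76 ± 0.11 (SE, adjusted p = 5.11e-06) in wild-type cells. Hspa8, the constitutive Hsp70, changed by 0.65 ± 0.11 (SE, adjusted p = 5.67e-05) in Jak2V617F and 0.73 ± 0.11 (SE, adjusted p = 5.26e-06) in wild-type cells, and its treatment groups overlapped in Jak2V617F but not in wild-type cells. Stip1, the adaptor between Hsp70 and Hsp90, changed by 0.60 ± 0.11 (SE, adjusted p = 0.000142) in Jak2V617F and 0.81 ± 0.11 (SE, adjusted p = 1.81e-06) in wild-type cells. Hsp90ab1 changed less, by 0.40 ± 0.060 (SE, adjusted p = 1.58e-05) in Jak2V617F and 0.46 ± 0.060 (SE, adjusted p = 1.00e-06) in wild-type cells. The Hsp90 co-chaperones Ahsa1 (0.60 in Jak2V617F and 0.68 in wild-type cells), Fkbp4 (0.52 in Jak2V617F and 0.69 in wild-type cells) and Ptges3 (0.43 in Jak2V617F and 0.46 in wild-type cells) rose as well, with no overlap between treatments in either genotype.

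Hsf1, the heat shock factor, ran at 67.1 to 90.0 CPM (median 75.4) in Jak2V617F under pegIFN, against 53.1 to 69.4 CPM (median 55.9) under vehicle, a log2 fold change of 0.38 ± 0.086 (SE, adjusted p = 0.00101). In wild-type cells it ran at 71.6 to 89.9 CPM (median 80.7) under pegIFN, against 47.9 to 63.3 CPM (median 59.0) under vehicle, a change of 0.50 ± 0.086 (SE, adjusted p = 2.65e-05). It rose in both genotypes, and only in wild-type cells were its treatment groups fully apart. Its relative Hsf2, also a DNA-binding heat shock factor, went the other way, with changes of -0.27 ± 0.10 (SE, adjusted p = 0.0372) in Jak2V617F and -0.31 ± 0.10 (SE, adjusted p = 0.0133) in wild-type cells. The Hsf2 call in Jak2V617F cells was lost without any 1 of Jak2V617F pegIFN 1, 2, 3 or 5 or Jak2V617F vehicle 2, 4 or 6 and without the vehicle replicate 3 mouse, and that in wild-type cells without wild-type pegIFN 4. Dnajb1, the DnaJ partner of Hsp70 in the heat shock response, ran at 83.5 to 162 CPM (median 115) in Jak2V617F under pegIFN, against 83.6 to 175 CPM (median 113) under vehicle. The levels of Dnajb1 overlapped almost entirely, and its log2 fold change was 0.0057 ± 0.19 (SE, adjusted p = 0.985) there and 0.073 ± 0.19 (SE, adjusted p = 0.764) in wild-type cells. For Dnajb1, 2 SE either side gave -0.38 to 0.39 in Jak2V617F and -0.31 to 0.45 in wild-type cells.

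Hspa1a and Hspa1b, the stress-inducible Hsp70 genes that lie side by side on chromosome 17, varied widely among mice of the same treatment. Of the 75-base stretches of Hspa1a, 54.2% also occur in another gene, chiefly Hspa1b, so the division of reads between them is uncertain. Their sum is used here for the levels. The fold changes below are of each gene apart and depend on that division. In Jak2V617F cells under pegIFN the sum was 21.5, 384, 9.60, 249, 539 and 192 CPM in replicates 1 to 6. In Jak2V617F cells under vehicle it was 188, 11.5, 446, 36.5, 22.6 and 1.26 CPM. In wild-type cells under pegIFN the sum was 29.5, 424, 10.9, 136, 282 and 103 CPM. In wild-type cells under vehicle it was 132, 5.61, 306, 15.9, 10.4 and 1.53 CPM. The highest library was 56.1 times the lowest in Jak2V617F under pegIFN, 354 times in Jak2V617F under vehicle, 38.8 times in wild-type under pegIFN and 199 times in wild-type under vehicle, and mice that were high in Jak2V617F cells were high in wild-type cells too. With this spread neither gene was called: Hspa1b changed by 1.16 ± 1.21 (SE, adjusted p = 0.464) in Jak2V617F and 1.26 ± 1.22 (SE, adjusted p = 0.391) in wild-type cells, and Hspa1a by 0.64 ± 1.32 (SE, adjusted p = 0.729) in Jak2V617F and 0.63 ± 1.33 (SE, adjusted p = 0.705) in wild-type cells.

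The mouse of vehicle replicate 3 had the highest Hspa1 sum of the vehicle mice in both genotypes, and was high for other heat shock genes. Hsph1 was 295 CPM in its Jak2V617F library, against 89.1 to 145.0 in the other 5 of that group, and 228 in its wild-type library, against 74.6 to 122.7. Dnaja1, a DnaJ partner of Hsp70, was 365 CPM against 181.9 to 228.4 in the other Jak2V617F vehicle libraries, and 336 against 161.4 to 215.4 in the other wild-type vehicle libraries. Hspa5 stood at 1440.1 CPM in its Jak2V617F and 1151 CPM in its wild-type library. The same mouse had the highest sum of 16 immediate early genes, which respond within minutes to stimulation and to cell handling, at 9795 CPM in Jak2V617F and 9375 CPM in wild-type cells. Without both its libraries, 45 members rose and 1 fell in Jak2V617F cells, and 46 rose and 2 fell in wild-type cells. Of the 16021 genes tested in that fit, 7112 were called in Jak2V617F and 9108 in wild-type cells, counting both directions. Hsph1 then changed by 1.44 ± 0.17 (SE, adjusted p = 1.51e-06) in Jak2V617F and 1.63 ± 0.17 (SE, adjusted p = 1.18e-07) in wild-type cells. Over all mice, the immediate early sum had medians of 2255 CPM under pegIFN against 7038 under vehicle in Jak2V617F cells, and 1765 under pegIFN against 7624 under vehicle in wild-type cells. Of these 16 genes 13 fell in Jak2V617F and 14 in wild-type cells. Their part in the chaperone result was not tested.

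**Figure D2:**
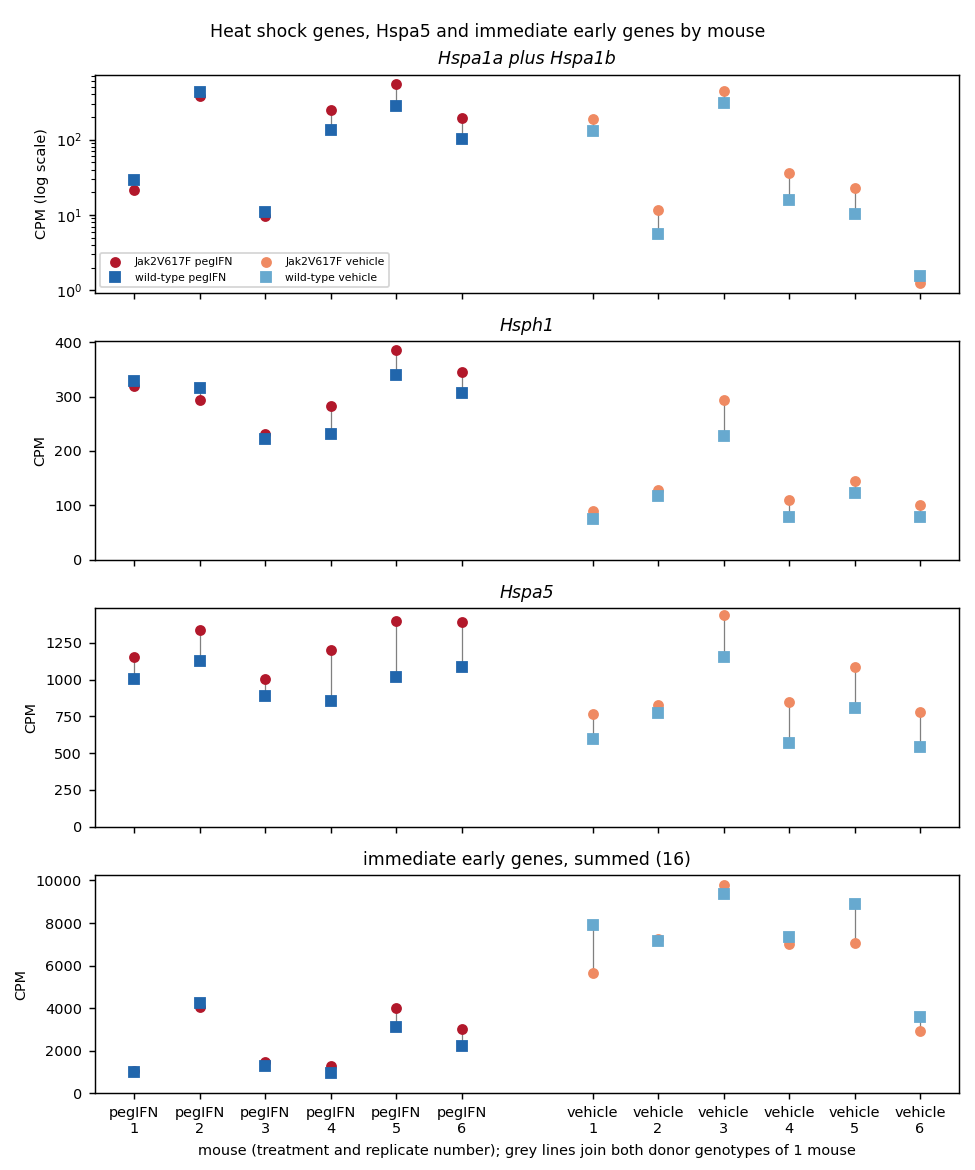
CPM by mouse of Hspa1a plus Hspa1b (log axis), Hsph1, Hspa5 and the summed immediate early genes, in pegIFN and vehicle mice, with a grey line joining the Jak2V617F and the wild-type library of each mouse. The Hspa1 sum spans 1.26 to 539 CPM and differs less within a mouse than among mice of the same treatment. Its Jak2V617F library is above the wild-type library in 5 of 6 vehicle mice and in 3 of 6 pegIFN mice. The median log2 ratio is 0.79 under vehicle and 0.37 under pegIFN. The vehicle mouse with the highest Hspa1 sum is also the highest vehicle mouse for Hsph1, Hspa5 and the immediate early genes.

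All 5 mitochondrial members rose in both genotypes, with median log2 fold changes of 0.35 in Jak2V617F and 0.44 in wild-type cells. Hspe1, the co-chaperonin that caps the Hspd1 chamber (chr1:55088132-55091307, plus strand), ran at 149.5 to 253 CPM (median 223) in Jak2V617F under pegIFN, against 108 to 142 CPM (median 114) under vehicle. In wild-type cells it ran at 129.7 to 195 CPM (median 157) under pegIFN, against 68.5 to 105 CPM (median 76.9) under vehicle. The treatments did not overlap in either genotype. The change of Hspe1 was 0.83 ± 0.12 (SE, adjusted p = 9.98e-06) in Jak2V617F and 0.90 ± 0.12 (SE, adjusted p = 1.39e-06) in wild-type cells. Its partner Hspd1, transcribed from the same short stretch on the opposite strand, changed by 0.63 ± 0.094 (SE, adjusted p = 1.26e-05) in Jak2V617F and 0.76 ± 0.094 (SE, adjusted p = 3.70e-07) in wild-type cells. Hspa9, the mitochondrial Hsp70 that also draws proteins in during import, changed by 0.35 ± 0.058 (SE, adjusted p = 4.00e-05) in Jak2V617F and 0.44 ± 0.058 (SE, adjusted p = 8.64e-07) in wild-type cells. The DnaJ protein Dnaja3 and the mitochondrial Hsp90 Trap1 changed least, Trap1 by 0.14 ± 0.046 (SE, adjusted p = 0.0195) in Jak2V617F and 0.22 ± 0.046 (SE, adjusted p = 0.000257) in wild-type cells.

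All 8 CCT subunits rose in both genotypes, with log2 fold changes of 0.26 to 0.53 in Jak2V617F and 0.33 to 0.67 in wild-type cells. Cct7 changed most. It ran at 461 to 546 CPM (median 507) in Jak2V617F under pegIFN, against 305 to 384 CPM (median 356) under vehicle. Wild-type cells had 436 to 486 CPM (median 454) under pegIFN, against 247 to 321 CPM (median 290.2) under vehicle. The Cct7 treatment groups did not overlap in either genotype, and its change was 0.53 ± 0.064 (SE, adjusted p = 7.95e-07) in Jak2V617F and 0.67 ± 0.064 (SE, adjusted p = 7.97e-09) in wild-type cells. Cct3 followed with 0.47 ± 0.056 (SE, adjusted p = 6.99e-07) in Jak2V617F and 0.63 ± 0.056 (SE, adjusted p = 2.68e-09) in wild-type cells, and Tcp1, the alpha subunit, changed by 0.34 ± 0.068 (SE, adjusted p = 0.000354) in Jak2V617F and 0.48 ± 0.068 (SE, adjusted p = 2.72e-06) in wild-type cells. The treatments did not overlap for 7 of 8 subunits in Jak2V617F and for 8 of 8 in wild-type cells. No 75-base stretch of the 7 subunits checked occurred in another gene, so these counts are not shared with a copy.

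Among the 16 ER members, 11 rose in Jak2V617F and 12 in wild-type cells, and 1, Dnajb9, fell in each. Sdf2l1 (a component of the ER chaperone complex around BiP) changed by 0.66 ± 0.19 (SE, adjusted p = 0.00811) in Jak2V617F and 1.07 ± 0.19 (SE, adjusted p = 7.59e-05) in wild-type cells. Creld2 (an ER stress-inducible protein; chr15:88819646-88826681, plus strand) ran at 73.0 to 96.5 CPM (median 88.8) in Jak2V617F under pegIFN, against 43.4 to 84.4 CPM (median 47.4) under vehicle. Wild-type libraries ran at 59.9 to 79.6 CPM (median 73.6) under pegIFN, against 29.4 to 56.6 CPM (median 38.6) under vehicle. The groups overlapped in Jak2V617F cells and were apart in wild-type cells, with changes of 0.63 ± 0.16 (SE, adjusted p = 0.00212) in Jak2V617F and 0.87 ± 0.16 (SE, adjusted p = 5.87e-05) in wild-type cells. Hyou1, the ER counterpart of Hsph1, changed by 0.44 ± 0.13 (SE, adjusted p = 0.00798) in Jak2V617F and 0.73 ± 0.13 (SE, adjusted p = 4.67e-05) in wild-type cells, and Dnajb11, a DnaJ partner of BiP, by 0.52 ± 0.10 (SE, adjusted p = 0.00032) in Jak2V617F and 0.63 ± 0.10 (SE, adjusted p = 1.84e-05) in wild-type cells. The disulphide isomerases Pdia3, Pdia4 and Pdia6 rose in both genotypes, with changes from 0.31 to 0.58. Hsp90b1, the ER Hsp90, changed by 0.40 ± 0.12 (SE, adjusted p = 0.0103) in Jak2V617F and 0.50 ± 0.12 (SE, adjusted p = 0.00116) in wild-type cells.

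Hspa5 (BiP, chr2:34771970-34776531, plus strand) lay close to the threshold. It ran at 1002 to 1397 CPM (median 1272) in Jak2V617F under pegIFN, against 766 to 1440.1 CPM (median 836) under vehicle. In wild-type cells it ran at 856 to 1125 CPM (median 1010.4) under pegIFN, against 540.0 to 1151 CPM (median 685) under vehicle. The treatments overlapped in both genotypes. The change was 0.38 ± 0.17 (SE, adjusted p = 0.0654), not called, in Jak2V617F cells and 0.43 ± 0.17 (SE, adjusted p = 0.0311), called, in wild-type cells. Without the mouse of vehicle replicate 3 it was 0.54 ± 0.12 (SE, adjusted p = 0.000704) in Jak2V617F and 0.61 ± 0.12 (SE, adjusted p = 0.000126) in wild-type cells, both called. Without the pair of libraries apart on sex-linked genes, Hspa5 was not called in wild-type cells either.

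Dnajb9 (ERdj4, a DnaJ protein that restrains the sensor Ern1; chr12:44205897-44210068, minus strand) was the ER member that fell. It ran at 21.4 to 30.8 CPM (median 22.6) in Jak2V617F under pegIFN, against 30.1 to 42.2 CPM (median 35.7) under vehicle. Wild-type libraries ran at 20.9 to 30.7 CPM (median 24.3) under pegIFN, against 32.6 to 52.6 CPM (median 47.6) under vehicle. Every wild-type pegIFN library lay below every wild-type vehicle library (14.8% of all genes did so), while the Jak2V617F groups overlapped. The change was -0.57 ± 0.11 (SE, adjusted p = 0.000316) in Jak2V617F and -0.89 ± 0.11 (SE, adjusted p = 6.02e-07) in wild-type cells. Xbp1, the transcription factor that Ern1 activates by splicing, ran at 121 to 147 CPM (median 131) in Jak2V617F under pegIFN, against 98.6 to 147 CPM (median 113) under vehicle. These levels overlapped, and its change was 0.15 ± 0.089 (SE, adjusted p = 0.185) there and 0.049 ± 0.089 (SE, adjusted p = 0.661) in wild-type cells. Gene counts do not tell the spliced form of Xbp1 from the unspliced one. The ER stress genes Dnajc3 and Herpud1 were also not called, with changes of 0.14 and 0.060 in Jak2V617F and 0.12 and 0.17 in wild-type cells. Without the mouse of vehicle replicate 3, edgeR called Dnajc3 in both genotypes, at 0.20 (adjusted p = 0.00914) in Jak2V617F and 0.21 (adjusted p = 0.00455) in wild-type cells. It then also called Herpud1 in wild-type cells, at 0.25 (adjusted p = 0.0157), but not in Jak2V617F cells, at 0.14 (adjusted p = 0.194). Xbp1 was then called in Jak2V617F cells, at 0.22 (adjusted p = 0.0215), and not in wild-type cells, at 0.12 (adjusted p = 0.188).

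**Figure D3:**
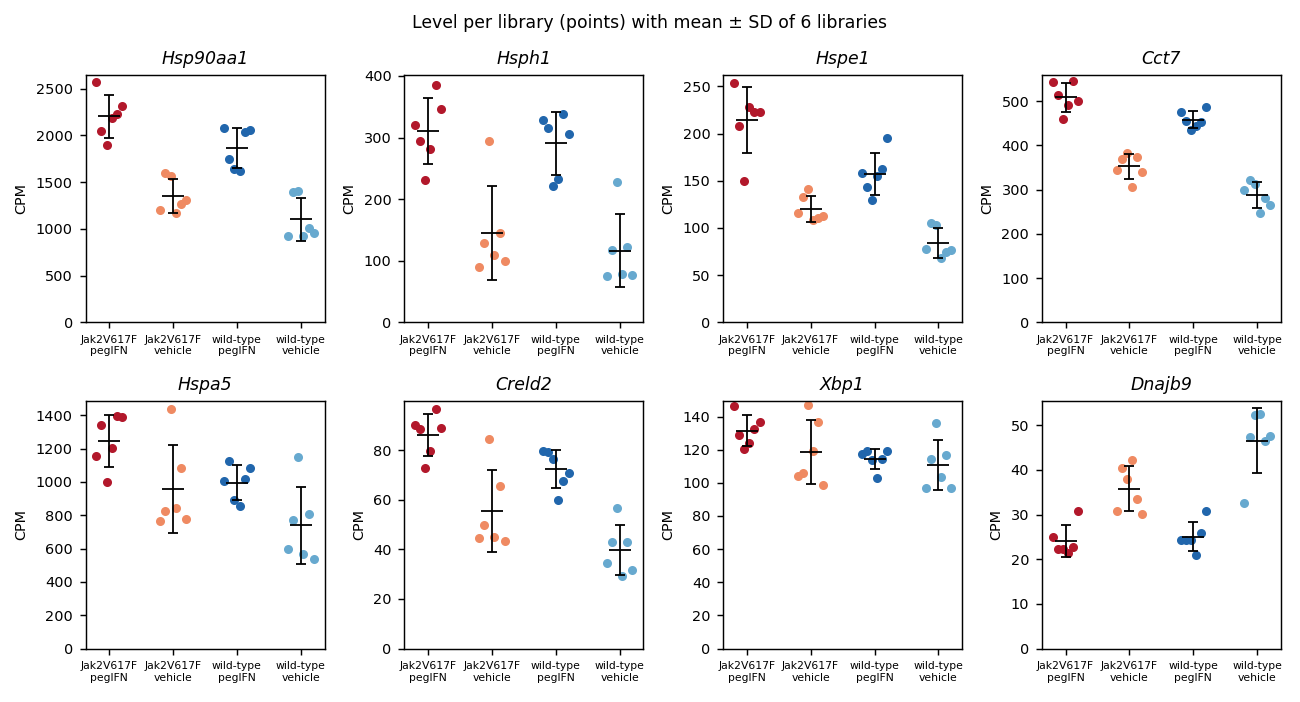
CPM of Hsp90aa1, Hsph1, Hspe1, Cct7, Hspa5, Creld2, Xbp1 and Dnajb9 in each library of the 4 groups, with mean ± SD (n = 6). Hsp90aa1, Hspe1 and Cct7 are higher in every pegIFN library than in every vehicle library of the same genotype, Xbp1 overlaps, and Dnajb9 is lower under pegIFN.

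Of 12 sensors and effectors of the unfolded protein response, 3 rose and 4 fell in each genotype. These shares were near those of all genes, of which 21.7% rose and 22.3% fell in Jak2V617F and 28.2% rose and 28.7% fell in wild-type cells, so nothing is read from the counts. The list's median was -0.10 in Jak2V617F and -0.06 in wild-type cells. Single genes passed the test in each direction. Ddit3 (CHOP, a transcription factor of the response) changed by 0.56 ± 0.10 (SE, adjusted p = 0.000143) in Jak2V617F and 0.80 ± 0.10 (SE, adjusted p = 7.53e-07) in wild-type cells. The sensor relative Atf6b rose too, by 0.44 ± 0.076 (SE, adjusted p = 7.69e-05) in Jak2V617F and 0.67 ± 0.077 (SE, adjusted p = 1.14e-07) in wild-type cells. The sensors Ern1 and Atf6 fell, with changes for Ern1 of -0.47 ± 0.12 (SE, adjusted p = 0.00331) in Jak2V617F and -0.64 ± 0.12 (SE, adjusted p = 0.000106) in wild-type cells, and for Atf6 of -0.27 ± 0.058 (SE, adjusted p = 0.000595) in Jak2V617F and -0.21 ± 0.058 (SE, adjusted p = 0.00324) in wild-type cells. The sensor Eif2ak3 (PERK) was not called in either genotype.

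The lists of other folding genes were divided by the same compartments, and their counts stand beside the same all-gene shares (21.7% and 22.3% in Jak2V617F, 28.2% and 28.7% in wild-type cells). Of 21 other mitochondrial chaperones and proteases 15 rose and 0 fell in Jak2V617F, and 16 rose and 0 fell in wild-type cells, with medians of 0.26 in Jak2V617F and 0.37 in wild-type cells. Phb2, a prohibitin of the inner membrane, changed by 0.50 ± 0.073 (SE, adjusted p = 1.03e-05) in Jak2V617F and 0.64 ± 0.073 (SE, adjusted p = 1.32e-07) in wild-type cells. Of 14 prefoldin subunits and CCT cofactors 9 rose and 1 fell in Jak2V617F, and 7 rose and 1 fell in wild-type cells, with medians of 0.27 in Jak2V617F and 0.28 in wild-type cells. Pfdn2, a prefoldin subunit that hands clients to CCT, changed by 0.47 ± 0.056 (SE, adjusted p = 6.28e-07) in Jak2V617F and 0.54 ± 0.056 (SE, adjusted p = 3.38e-08) in wild-type cells. Of 42 other ER folding and degradation genes, 17 rose and 0 fell in Jak2V617F, and 22 rose and 7 fell in wild-type cells, with medians of 0.11 in Jak2V617F and 0.18 in wild-type cells. Mogs, which trims sugars from new glycoproteins, changed by 0.44 ± 0.079 (SE, adjusted p = 9.28e-05) in Jak2V617F and 0.73 ± 0.079 (SE, adjusted p = 5.38e-08) in wild-type cells. Of 40 other cytosolic chaperones tested 17 rose and 5 fell in Jak2V617F, and 21 rose and 5 fell in wild-type cells, with medians of 0.12 in Jak2V617F and 0.14 in wild-type cells. Hspa12b, a distant Hsp70 relative, fell, with changes of -0.49 ± 0.12 (SE, adjusted p = 0.00151) in Jak2V617F and -0.78 ± 0.12 (SE, adjusted p = 5.14e-06) in wild-type cells.

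Markers of cell state are set here beside all genes, of which 21.7% rose and 22.3% fell in Jak2V617F and 28.2% rose and 28.7% fell in wild-type cells. The proliferation share was near that of all genes in Jak2V617F and above it in wild-type cells. Of 20 proliferation genes 5 rose in Jak2V617F and 19 in wild-type cells under pegIFN, with medians of 0.12 in Jak2V617F and 0.50 in wild-type cells. Of 10 LT-HSC markers, 8 fell in each genotype, and Ly6a, which encodes Sca1, rose in each. The other lists are small, and several of their shares were near or below those of all genes. Of 8 megakaryocyte markers 1 rose in Jak2V617F and 4 in wild-type cells, and of 10 erythroid markers 4 rose and 4 fell in each. Of 10 granulocyte and monocyte markers 1 rose and 0 fell in Jak2V617F, and 1 rose and 3 fell in wild-type cells. Of the genes tested, 2 of 6 plasma cell markers fell in Jak2V617F and 3 of 6 in wild-type cells, 1 of 5 B lymphoid markers fell in Jak2V617F and 3 of 5 in wild-type cells, and 2 of 4 T and NK markers rose and 1 fell in each. Their part in the chaperone results was not tested.

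The second comparison set Jak2V617F against wild-type cells of the same treatment. Under pegIFN, 45 of 53 members had a log2 fold change above 0, most of them small, and few passed the test without the mouse as a block. Here 5 were higher (Cct6a, Edem1, Hspe1, Manf and Pdia3) and 0 lower, where 4.16% of all genes were higher and 4.43% lower. At an unadjusted p under 0.05 there were 23 members and 3849 of the 15879 genes. DESeq2 called 9 members, all higher, and 1919 of 38215 genes in either direction. The members' median was 0.14 in the main fit, against 0.01 over all genes. With the mouse as a block, which compares both genotypes inside each recipient, 32 members were higher and 0 lower, where 13.3% of all genes were higher. Those 32 were 9 cytosolic, 2 mitochondrial, 8 CCT and 13 ER members. With the block and without both mice of the pair apart on sex-linked genes, 23 were higher and 0 lower (7 cytosolic, 2 mitochondrial, 4 CCT and 10 ER), where 7.78% of all genes were higher and 8.21% lower. Without the block, 0 of 53 were called once the pair of libraries was left out. For this fit and those with 1 library left out, the share of all genes called is not given here. A loss of calls particular to the members therefore cannot be told from a general one. The unblocked count of 5 was also changed by single libraries: it was 0 without any 1 of Jak2V617F pegIFN 1, 4 or 6 or wild-type pegIFN 2, 3 or 4. It was 3 without Jak2V617F pegIFN 2, 2 without Jak2V617F pegIFN 5 or wild-type pegIFN 1, 1 without wild-type pegIFN 5, and 10 without Jak2V617F pegIFN 3 or wild-type pegIFN 6.

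Pdia3, a disulphide isomerase for glycoproteins, ran at 628 to 739.7 CPM (median 658) in Jak2V617F under pegIFN, against 477 to 627 CPM (median 527) in wild-type under pegIFN. These groups did not overlap, and the change was 0.32 ± 0.090 (SE, adjusted p = 0.0303), or 0.32 ± 0.048 (SE, adjusted p = 0.000233) with the mouse as a block. Genotypes also did not overlap for Hsp90b1, Dnajb11, Dnajc3 and Xbp1, all ER members, which makes 5 of 53 where 1.65% of all genes were so, and 0 members were lower without overlap (1.81% of all genes). Hspe1 ran at 149.5 to 253 CPM (median 223) in Jak2V617F and 129.7 to 195 CPM (median 157) in wild-type cells under pegIFN, with a change of 0.45 ± 0.12 (SE, adjusted p = 0.024), or 0.44 ± 0.058 (SE, adjusted p = 9.74e-05) with the block. Manf, a secreted ER stress protein, changed by 0.42 ± 0.12 (SE, adjusted p = 0.04), or 0.42 ± 0.064 (SE, adjusted p = 0.000307) with the block. Edem1, which marks misfolded glycoproteins for degradation, changed by 0.31 ± 0.097 (SE, adjusted p = 0.0447), and Cct6a by 0.22 ± 0.062 (SE, adjusted p = 0.03). In this comparison 4 of 10 granulocyte and monocyte markers were higher in Jak2V617F cells, and their part was not tested.

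Under vehicle more members passed, among them every CCT subunit and most ER and mitochondrial members. In Jak2V617F cells 24 members were higher and 1 lower, where 8.48% of all genes were higher and 4.23% lower, and the median was 0.22 against -0.01 over all genes. All 8 CCT subunits, 4 of 5 mitochondrial, 10 of 16 ER and 2 of 24 cytosolic members were higher. With the mouse as a block 40 were higher and 2 lower, where 17.5% of all genes were higher and 13.6% lower. The 40 comprised 13 cytosolic, 5 mitochondrial, 8 CCT and 14 ER members. With the block and without both mice of the pair, 36 were higher and 1 lower, where 14.5% of all genes were higher and 10.5% lower. Without the block and without the pair apart on sex-linked genes 11 were higher and 0 lower (1 cytosolic, 2 mitochondrial, 6 CCT and 2 ER), and without wild-type vehicle replicate 4 alone, 9 were higher. The shares of all genes called in these unblocked fits are not given here, so a general loss of calls cannot be told apart. In every one of the 6 vehicle mice the Jak2V617F library was above the wild-type library for 36 of 53 members, as it was for 15.4% of all genes, and in every pegIFN mouse for 31 of 53 (12.8% of all genes). Without the mice of the pair it was so in each of 5 vehicle mice for 36 members (17.5% of all genes) and in each of 5 pegIFN mice for 32 (14.2%).

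**Figure D4:**
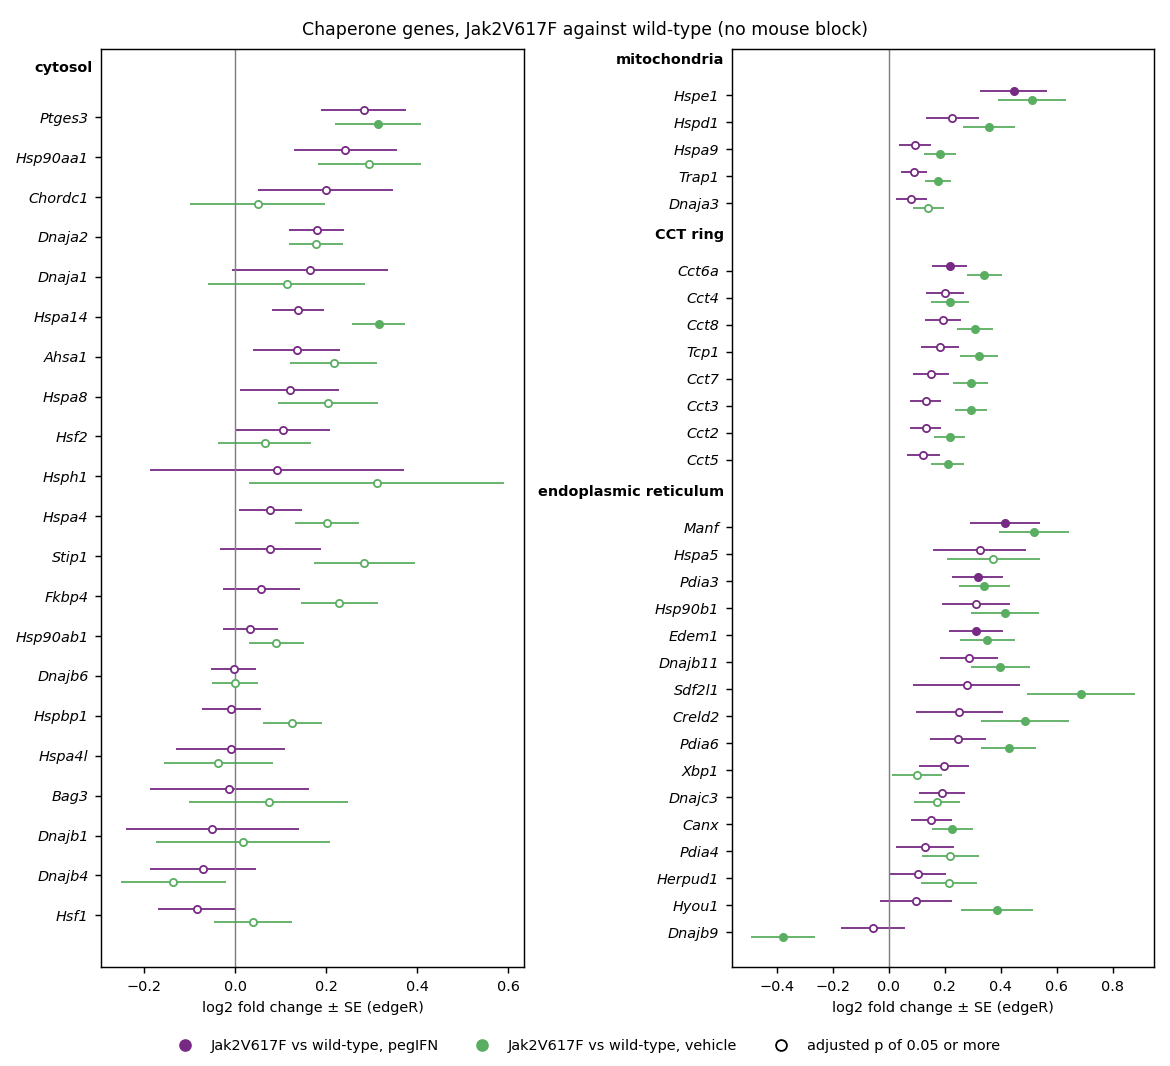
Log2 fold change of Jak2V617F over wild-type cells for each member under pegIFN and under vehicle, ordered by compartment, with bars of ± SE from edgeR without a block. Hspa1a, Hspa1b and Hspb1 are left out because their SE is too wide for the axis. CCT and ER points lie right of 0 except Dnajb9, which lies left of 0 in both, further under vehicle.

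The CCT subunits differed between genotypes by 0.21 to 0.34 under vehicle. Cct6a ran at 203 to 229 CPM (median 225) in Jak2V617F under vehicle, against 156 to 197 CPM (median 167) in wild-type under vehicle. Its groups did not overlap, which under vehicle held for 3 members (Cct6a, Hspa14 and Hspe1) and for 1.76% of all genes, with 0 lower (1.15%), and its change was 0.34 ± 0.062 (SE, adjusted p = 0.00239). Hspe1 ran at 108 to 142 CPM (median 114) in Jak2V617F and 68.5 to 105 CPM (median 76.9) in wild-type cells under vehicle, a change of 0.51 ± 0.12 (SE, adjusted p = 0.00879). Hspd1 changed by 0.36 ± 0.094 (SE, adjusted p = 0.0153), and its call was lost without wild-type vehicle 4. Among cytosolic members only Hspa14, an Hsp70 that works on the ribosome, and Ptges3, the p23 co-chaperone of Hsp90, passed, with 0.32 ± 0.058 (SE, adjusted p = 0.00249) for Hspa14 and 0.31 ± 0.094 (SE, adjusted p = 0.0296) for Ptges3. The Ptges3 call was lost without any 1 of Jak2V617F vehicle 1, 2 or 3 or wild-type vehicle 4, 5 or 6. With the block and without both mice of the pair, edgeR called Hspd1 at 0.35 (adjusted p = 0.000298) and Ptges3 at 0.31 (adjusted p = 0.00105). Hsp90aa1 changed by 0.29 ± 0.11 (SE, adjusted p = 0.0829) and with the block by 0.31 ± 0.044 (SE, adjusted p = 7.95e-05). Hsp90ab1 changed by 0.090 ± 0.060 (SE, adjusted p = 0.327), and with the block by 0.091 ± 0.039 (SE, adjusted p = 0.0874). Hsf1 differed little, by 0.040 ± 0.086 (SE, adjusted p = 0.794), with -0.13 to 0.21 at 2 SE either side. Hspa1a and Hspa1b were not called between genotypes without the block. With the block both were higher in Jak2V617F cells under vehicle, and Hspa1a also under pegIFN. Leaving out both mice of the pair as well, edgeR called neither under vehicle (0.78, adjusted p = 0.080 for Hspa1a and 0.63, adjusted p = 0.0621 for Hspa1b). Under pegIFN that fit called Hspa1a at 0.89 (adjusted p = 0.0425).

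Without the block, Sdf2l1 had the largest called difference under vehicle. It ran at 54.5 to 110.2 CPM (median 64.6) in Jak2V617F and 29.4 to 70.3 CPM (median 43.1) in wild-type cells, groups that overlapped, with a change of 0.69 ± 0.19 (SE, adjusted p = 0.0247). Creld2 changed by 0.49 ± 0.16 (SE, adjusted p = 0.0423), Manf by 0.52 ± 0.13 (SE, adjusted p = 0.0103) and Hsp90b1 by 0.42 ± 0.12 (SE, adjusted p = 0.0266). Without Jak2V617F vehicle replicate 3, the Creld2 change was 0.34 (adjusted p = 0.115), and its call was also lost without any 1 of Jak2V617F vehicle 5, wild-type pegIFN 6 or wild-type vehicle 1, 4, 5 or 6. That fit kept the wild-type library of the same mouse. Without both libraries of the vehicle replicate 3 mouse, edgeR called Creld2 at 0.45 (adjusted p = 0.0207). Calls of Sdf2l1 and Hsp90b1 were lost without any 1 of Jak2V617F vehicle 3 or 5 or wild-type vehicle 4 or 6. Without both libraries of the vehicle replicate 3 mouse they held, at 0.69 (adjusted p = 0.0151) for Sdf2l1 and 0.43 (adjusted p = 0.0216) for Hsp90b1. With the block and without both mice of the pair, edgeR called Sdf2l1 at 0.64 (adjusted p = 0.00103). In that fit it also called Hsp90b1 at 0.39 (adjusted p = 0.000223) and Creld2 at 0.45 (adjusted p = 0.000923). Hspa5 ran at 766 to 1440.1 CPM (median 836) in Jak2V617F and 540.0 to 1151 CPM (median 685) in wild-type cells, an overlap, with a change of 0.37 ± 0.17 (SE, adjusted p = 0.137), and 0.39 ± 0.055 (SE, adjusted p = 7.95e-05) with the block. Without the vehicle replicate 3 mouse and without the block, Hspa5 changed by 0.38 (adjusted p = 0.0426) and was called. Dnajb9 was the member lower in Jak2V617F cells, at 30.1 to 42.2 CPM (median 35.7) against 32.6 to 52.6 CPM (median 47.6) in wild-type cells, with a change of -0.38 ± 0.11 (SE, adjusted p = 0.0302). This call was lost without any 1 of Jak2V617F vehicle 1, 5 or 6 or wild-type vehicle 3, 4, 5 or 6 and without the vehicle replicate 3 mouse, and held with the block at -0.37 ± 0.063 (SE, adjusted p = 0.00029). Of the 20 proliferation genes 15 were higher in Jak2V617F cells under vehicle, with a median of 0.63, and 3 of 10 LT-HSC markers were lower. Their part in the chaperone difference was not tested.

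The interaction asked whether the pegIFN change differed between genotypes. For 46 of 53 members the log2 fold change lay further from 0 in wild-type than in Jak2V617F cells. The same count over all genes is not given here. More of all genes were called in wild-type cells (28.2% higher, 28.7% lower) than in Jak2V617F cells (21.7% higher, 22.3% lower). The count is therefore not read as a trait of the members. No member passed the test of this difference: edgeR called 0 of 53, with 1 at an unadjusted p under 0.05. It called 0 of all 15879 genes, with 1338 at that unadjusted p. DESeq2 called 0 members (2 unadjusted) and 47 of 38215 genes (1613 unadjusted). With a random effect of the mouse, limma-voom called 0 members (9 unadjusted) and 281 of 15879 genes (3046 unadjusted). With the mouse as a block, edgeR called 0 members (17 unadjusted), where it called 1.28% of all genes higher and 2.05% lower (3095 of 15879 unadjusted). The interaction of Dnajb9 was 0.32 ± 0.16 (SE, adjusted p = 0.601), with 0.00033 to 0.64 at 2 SE either side. That of Sdf2l1 was -0.41 ± 0.27, with -0.95 to 0.14 at 2 SE either side. Hsp90aa1 had -0.052 ± 0.16 and -0.37 to 0.27 at 2 SE either side, and Cct7 had -0.14 ± 0.090 and -0.32 to 0.038 at 2 SE either side. Both pegIFN changes and both genotype changes share libraries, so their values are set side by side here and not correlated.

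Reads shared with related genes limit some levels. Of 75-base stretches, 61.9% of Hspa8, 46.4% of Hspb1, 45.4% of Hsp90aa1, 29.6% of Hspd1 and 23.7% of Hspe1 also occur in another gene, so their counts depend on how RSEM divided reads. Hspb1, a small heat shock protein, was near the limit of the depth, at 0.762 to 3.48 CPM (median 1.57) in Jak2V617F under pegIFN, 0.0663 to 4.83 CPM (median 0.918) in Jak2V617F under vehicle, 1.24 to 2.35 CPM (median 1.85) in wild-type under pegIFN and 0.107 to 4.10 CPM (median 0.815) in wild-type under vehicle. Hspb1 was not called in either treatment comparison with all mice, and without the mouse of vehicle replicate 3 it was called in wild-type cells, at 1.34 (adjusted p = 0.042).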

How the data were processed

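Polyadenylated RNA of sorted LT-HSCs was read as single-end 75-base reads, in 4 groups of 6 libraries. The authors deposited expected counts per gene, made, per the submitters' processing notes, with RSEM 1.2.30, STAR 2.5.2a and cutadapt 1.11 and the build GRCm38. The annotation release is not given in the sources used here. RSEM divides reads shared by several genes, so 16.8% of the values were not whole, and they were rounded. Depth limits low genes such as Hspb1.

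filterByExpr with a minimum count of 10 kept 15879 genes with 99.95% of counts and removed 22336. The main test was edgeR 4.0.16 (R 4.3.3), a quasi-likelihood F test with robust dispersions, TMM factors and a model of 4 group means with no block. P-values were adjusted by Benjamini and Hochberg's method across every gene tested. The common coefficient of biological variation was 18.6%. CPM used TMM-scaled library sizes. CPM per kb used the length of all exons of a gene, joined over its transcripts, in the supplied GRCm38.p6 annotation. Standard errors were derived from the F statistics, and 2 SE either side is given in place of an interval. Alternatives were DESeq2 1.42.0, limma-voom (limma 3.58.1) with the mouse as a random block, other scaling factors and filters, fits restricted to the compared groups, a block of replicate number or mouse, each library left out, and fits without the pair of libraries apart on sex-linked genes. Fits without the mouse of vehicle replicate 3, with both Hspa14 rows summed, and with the mouse block but without both mice of the pair were chosen after seeing the data. The main edgeR, limma-voom and DESeq2 fits were tried on simulated counts, for pegIFN against vehicle in wild-type cells only. These counts held no effect of the mouse. The genotype comparisons, the interaction and the edgeR fit with the mouse as a block were not tried on them.

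The members and the 14 other gene lists (227 genes) were chosen with earlier results of these data known. All members could be named. Chosen for fuller description were a fixed set (Hspa1a, Hspa1b, Hsf1, Hspa8, Hsp90aa1, Hsp90ab1, Hsph1, Dnajb1, Hspd1, Hspe1, Hspa9, Tcp1, Hspa5, Hsp90b1, Dnajb9 and Xbp1) and, per comparison and compartment, up to 3 called members with the largest change each way. Levels or genotype changes of some of them are not printed here. Of each other list, up to 3 genes per direction with the smallest p could be named. No library matched another of its group within sampling noise (chi-square over its degrees of freedom, 6.41 to 62.2). Mice were identified by the number that follows the treatment letter in the library name, and recipients held both genotypes. With group means removed, both libraries of a mouse correlated at 0.12 to 0.42 (median 0.28), and 11 of 12 pairs were highest with their own partner. Whether libraries were prepared in batches is not given in the sources used here.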

Additional observations from a re-analysis of the deposited data

Results flagged for a closer look

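Within each group of 6 libraries, the highest or lowest library stood apart from the rest (gap over range above Dixon's 95% critical value) in 22 of 212 gene and group combinations. Chance gives such a gap in about 1 in 20 groups, and the genes are not independent. None of these concerned Hspa1a or Hspa1b, whose spread was wide throughout.

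The mouse of vehicle replicate 3 accounted for 12 of them, all high. In its Jak2V617F library Hsph1 was at 294.5 CPM, Hspb1 at 4.83, Chordc1 at 126.7, Bag3 at 43.4 and Dnaja1 at 364.6. In its wild-type library Hspa4l was at 126.6 CPM, Hsph1 at 228.2, Hspb1 at 4.10, Bag3 at 35.5, Dnaja1 at 336.3, Dnajb6 at 98.0 and Edem1 at 95.6. The other 5 libraries of each group ran, for Bag3, from 23.6 to 30.1 CPM in Jak2V617F and from 23.4 to 27.7 in wild-type cells. Hsph1, Hspb1, Bag3 and Dnaja1 stood apart in both genotypes of this mouse.

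The other 10 were scattered. Replicate 3 of Jak2V617F under pegIFN was low for Cct2 (408.3 CPM), Cct8 (410.3) and Manf (149.0), and replicate 6 of that group was high for Dnajc3 (206.0). Replicate 4 of Jak2V617F under vehicle was low for Cct4 (289.2 CPM) and Cct5 (368.7). In wild-type cells under pegIFN, replicate 4 was low for Xbp1 (102.9 CPM) and replicate 2 high for Herpud1 (106.8). In wild-type cells under vehicle, replicate 5 was low for Hsf2 (11.2 CPM) and replicate 1 low for Dnajb9 (32.6, against 46.5 to 52.6 in the other 5). No cause was tested.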

How the results depend on the processing

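The counts of members higher under pegIFN stayed within 1.5 times of 41 in Jak2V617F and 42 in wild-type cells under every alternative run, and at 38 to 45 and 40 to 46 with 1 library left out. Counts of lower members were 1 to 2 and 1 to 3 with 1 library left out, and the 2 lower in Jak2V617F became 1 without the filter, without the pair apart on sex-linked genes and without the vehicle replicate 3 mouse. The genotype counts moved more. Under pegIFN the 5 higher became 9 with DESeq2, 2 without the filter, 13 with only the groups compared, 24 with limma-voom, 0 without the pair, and 0 to 10 with 1 library left out (0 lower throughout). Under vehicle the 24 higher became 26 with DESeq2, 36 with limma-voom, 12 with only the groups compared, 11 without the pair, and 9 to 35 with 1 library left out. The 1 lower became 0 with only the groups compared, without the pair or without the vehicle replicate 3 mouse, and was 0 to 1 with 1 library left out. The interaction stayed at 0. Shares of all genes are not given here for most of these settings, and the cause of these moves was not tested.

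With the mouse as a replicate block, 32 were higher under pegIFN, and 40 higher and 2 lower under vehicle. Leaving out both mice of the pair as well gave 23 higher under pegIFN, and 36 higher and 1 lower under vehicle. Of the genes given with a blocked call in the report, Pdia3, Hspe1, Manf, Hsp90aa1, Hspa5 and Dnajb9 were called in that fit too. Hspa1a kept its call under pegIFN, and Hspa1a and Hspa1b lost theirs under vehicle. The replicate number shared by pegIFN and vehicle mice pairs nothing: correlations were -0.24 to 0.06, no library was highest with its own number, and the block on it gave 42 higher and 2 lower in Jak2V617F and 43 and 2 in wild-type cells.

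Signs turned only for values near 0 or for Hspa1a, Hspa1b and Hsph1. Dnajb1 with upper-quartile factors was -0.054 in Jak2V617F and -0.0083 in wild-type cells under pegIFN and -0.012 for genotype under vehicle. With a filter of 1 CPM in 12 libraries it was -0.010 in Jak2V617F and -0.0029 for genotype under vehicle, with limma-voom -0.0018 in Jak2V617F, without the pair 0.027 for genotype under pegIFN, and for genotype under vehicle -0.026 without the vehicle replicate 3 mouse and -0.0052 with the block and without both mice of the pair. Xbp1 in wild-type cells was -0.032 with upper-quartile factors. With a library or the vehicle replicate 3 mouse left out, Dnajb1 ran from -0.10 to 0.16 for pegIFN in Jak2V617F cells, from -0.17 to 0.026 for genotype under pegIFN and from -0.12 to 0.13 for genotype under vehicle. For genotype under vehicle Hsph1 ran from -0.014 to 0.62, Hspa1a from -0.44 to 1.76 and Hspa1b from -0.68 to 1.85, lowest without Jak2V617F vehicle replicate 3 and highest without wild-type vehicle replicate 3. Hsf1 there ran from -0.0059 to 0.074. Each extreme of Hsph1, Hspa1a and Hspa1b left out a single library of that mouse and kept its partner. Without both its libraries, Hsph1 was 0.27 (edgeR, adjusted p = 0.301), Hspa1a 0.64 and Hspa1b 0.61, none called. Within single vehicle mice the log2 ratio of Hsph1 was 0.13 to 0.48. With the block and without both mice of the pair, edgeR called Hsph1 at 0.27 (adjusted p = 0.00246). Hspa1a for pegIFN in wild-type cells ran from -0.052 to 1.76. For genotype under pegIFN, Hsp90ab1 ran from -0.012 to 0.045, Hspa1b from -0.024 to 0.92 and Dnajb9 from -0.15 to 3.9e-05. Hspa5 in wild-type cells lost its call with upper-quartile factors, without the pair, and without any 1 of wild-type pegIFN 2 or 6 or wild-type vehicle 1, 4 or 6.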
